A study of Homo sapiens with 6 samples.

Results

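The insulin-like growth factor (IGF) family was examined through 10 genes: the IGF-binding proteins IGFBP1 to IGFBP7, the receptors IGF1R and IGF2R and the adaptor IRS2. They were chosen by name, without reference to a measured value in the rule, but with earlier results of these data known. All 10 were among the 22411 named genes of the table, each with 1 row. They were measured in U87, an established line of human glioblastoma cells. The 3 treated samples were cells given 1 mM of an amino acid that carries a carborane, a cage of boron, carbon and hydrogen, for 48 h, and the 3 control samples were cells with no treatment, for which the labels name no vehicle. All cells had first grown for 48 h in EMEM with 10% FBS and 1 mM pyruvate, and the labels do not say whether serum was present during treatment. U87 is 1 cell line. The labels do not call the triplicates separate cultures, and the p-values then reflect only the spread of these samples, which can be technical.

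IGF1 and IGF2 signal through the receptor tyrosine kinase IGF1R and, as hybrids or splice forms, through the related insulin receptor, and both receptors phosphorylate the docking proteins IRS1 and IRS2, which recruit PI3-kinase and so activate AKT. Secreted IGF-binding proteins hold the ligands in the medium or the matrix and are cut by dedicated proteases that release them. IGF2R has no kinase domain. It takes up IGF2 for degradation and is also the large mannose 6-phosphate receptor that carries new enzymes to the lysosome.

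The treated cells had more IRS2 and IGF2R mRNA and less IGFBP7, IGFBP6, IGFBP5 and IGFBP2 mRNA than the controls. IGF1R had the same mean in both groups, and IGFBP1, IGFBP3 and IGFBP4 did not pass the test. Thus 6 of the 10 genes (60.0%) were called, 2 higher and 4 lower, at a Benjamini-Hochberg adjusted p under 0.05 by limma over all named genes. Of all genes tested, 45.6% were called, 24.0% higher and 21.6% lower, so calls were common throughout the table. The median absolute log2 change was 0.62 over the 10 genes and 0.17 over all genes. A called change of at least 1 was reached by 4 of the 10, and by 9.92% of all genes. The treated and control values of 7 of the 10 did not overlap, against 53.5% of all genes. The median log2 change was 0.06 over the 10 genes and 0.01 over all genes. In controls 0 of the 10 lay below the median of all genes' means, and these comparisons were not matched for signal level. Values are log2 signals, and in such bulk samples fewer cells of a kind and less RNA per cell cannot be told apart.

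**Figure D1:**
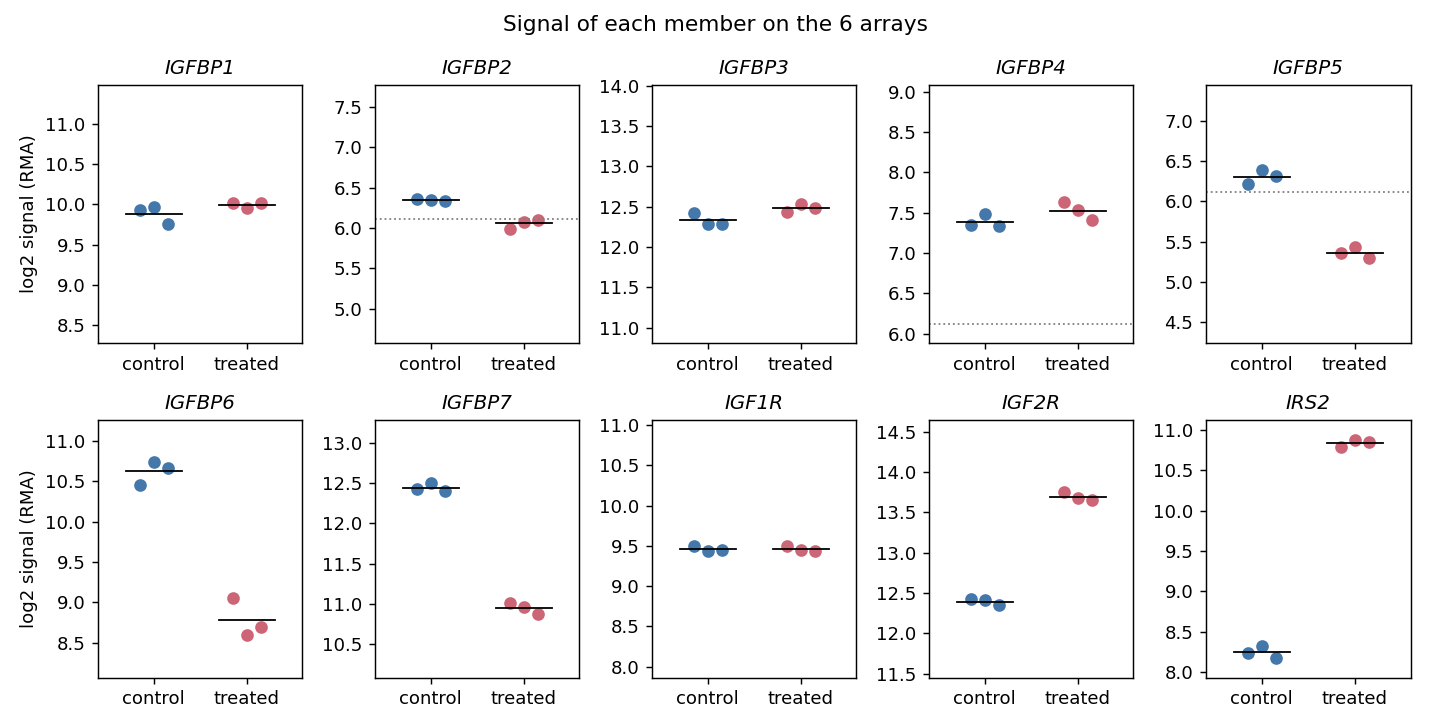
The log2 signal (RMA) of each of the 10 genes on 3 control arrays (blue) and 3 treated arrays (red), with black lines at the group means, every panel spanning the same number of log2 units and a dotted line at 6.12, the median of all genes' means, where it falls in the panel. IRS2 and IGF2R lie higher and IGFBP5, IGFBP6 and IGFBP7 lower on every treated array, while the points of IGF1R coincide at a mean of 9.46.

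Arrays of the same group correlated at 0.998 across genes and arrays of different groups at 0.959 to 0.963, and genes are not independent replicates. Of 8 markers of mesenchymal glioblastoma cells, 7 lay above the median of all genes' means (6.12) on every array. The mean signal of the 8 was 13.8 on the control arrays and 12.5 to 12.58 on the treated arrays, with 6 markers lower and 2 higher after treatment. The astrocyte markers GFAP, S100B, AQP4 and ALDH1L1 lay below that median on every array and SLC1A3 above it. Also below it on every array were all 3 endothelial markers, all 3 epithelial markers and the leukocyte markers PTPRC, AIF1 and CD3E, whereas CD68 lay above it. SNAP25 and SYT1, markers of neurons, lay above it on every array and RBFOX3 below it. The fall of the mesenchymal markers moved with the changes reported here, and its part in them was not tested.

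IRS2, the docking protein that links IGF and insulin receptors to PI3-kinase, had the largest change of the 10 genes. Its log2 signal was 8.23, 8.32 and 8.18 on the control arrays and 10.79, 10.88 and 10.85 on the treated arrays. All treated arrays lay above all controls, and the gap between the groups was far wider than the spread within either. The group means were 8.24 ± 0.07 and 10.84 ± 0.05 (SD, n = 3 each), and the log2 change was 2.60 (SE 0.05, limma adjusted p = 7.77e-08). Only 108 genes, 0.482% of those tested, had a higher change. Its paralogue IRS1, which docks to the same receptors, moved the other way. IRS1 fell by 0.70 on the log2 scale (SE 0.08, limma adjusted p = 3.43e-04), from 9.78 ± 0.01 to 9.08 ± 0.17 (SD, n = 3 each). Within each array, the difference between IRS2 and IRS1 was 3.29 log2 units greater on average in treated than in control samples, with no overlap (exact two-sided permutation p = 0.1, the smallest that 3 against 3 allows).

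The promoter of IRS2 is printed here with those of IGF2R and IGFBP6, because these are the 2 members that rose and the member that fell most. Each sequence is the 250 bases before the annotated gene start in RefSeq's GRCh38.p14, written in the gene's own direction. Of the 10 genes, 8 had such a window, and IGFBP1 and IGFBP7 did not. Capitals mark matches to any of 5 motifs searched on both strands, namely the E-box CACGTG, the forkhead motif GTAAACA, the core CAAAACA of insulin response elements, the cAMP response element TGACGTCA and the TATA box TATAAA. These 5 motifs share no overlapping match in the windows shown.
IRS2 (chr13:109786584-109786833, - strand): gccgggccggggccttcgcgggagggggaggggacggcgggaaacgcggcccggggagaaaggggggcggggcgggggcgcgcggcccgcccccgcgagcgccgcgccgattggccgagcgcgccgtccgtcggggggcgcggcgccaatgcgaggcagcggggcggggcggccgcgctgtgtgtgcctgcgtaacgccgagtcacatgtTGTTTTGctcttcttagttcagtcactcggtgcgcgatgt
IGF2R (chr6:159968832-159969081, + strand): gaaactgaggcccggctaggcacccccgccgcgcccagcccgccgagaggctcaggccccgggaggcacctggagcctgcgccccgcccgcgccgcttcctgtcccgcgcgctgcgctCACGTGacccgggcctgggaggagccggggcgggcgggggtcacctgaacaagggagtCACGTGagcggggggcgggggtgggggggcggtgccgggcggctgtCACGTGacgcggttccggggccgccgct
IGFBP6 (chr12:53097417-53097666, + strand): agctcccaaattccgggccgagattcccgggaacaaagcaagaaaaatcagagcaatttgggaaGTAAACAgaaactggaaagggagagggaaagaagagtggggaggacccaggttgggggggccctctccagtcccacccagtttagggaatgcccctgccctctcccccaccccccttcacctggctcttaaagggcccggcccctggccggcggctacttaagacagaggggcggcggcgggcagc
In IRS2 the match is TGTTTTG, the insulin response element core on the opposite strand, starting 40 bases before the gene start. This core was present in 4.3% of the 35116 windows of the table. In the IGF2R window the E-box, a site read by the lysosomal regulators of the TFE3 family among others, occurred 3 times, starting 132, 74 and 28 bases before the gene start. At least 1 E-box was found in 6.34% of all windows, and 3 or more in 28 windows (0.0797%). The IGFBP6 window held the forkhead motif, found in 2.98% of all windows, starting 186 bases before the gene start. Among the other members' windows the only match was a TATA box in IGFBP4, a motif in 10.7% of windows, and no cAMP response element was found in any member's window against 1.65% of all. A match describes the letters only and shows no binding.

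IGF2R rose on every treated array. Its log2 signal was 12.42, 12.41 and 12.35 on the control arrays and 13.75, 13.68 and 13.65 on the treated arrays. The groups were separated by more than 1 log2 unit, and the arrays within each lay close together. The means were 12.39 ± 0.04 in controls and 13.69 ± 0.05 after treatment (SD, n = 3 each). The log2 change was 1.30 (SE 0.05, limma adjusted p = 7.9e-07), and 3.01% of genes had a higher change. Of the 7 other genes of mannose 6-phosphate sorting that were measured, 0 were called higher and 2 lower by limma. This share of 28.6% was below the 45.6% of all genes. GNPTAB, a subunit of the enzyme that begins the mannose 6-phosphate tag, fell by 1.40 on the log2 scale (limma adjusted p = 8.75e-07). M6PR, the small mannose 6-phosphate receptor, fell by 0.21 (limma adjusted p = 0.00312). The median log2 change of these 7 genes was -0.06. CTSD, a lysosomal protease that this pathway delivers and that can also cut IGF-binding proteins, rose by 1.38.

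IGF1R, the signalling receptor of the family, gave 9.50, 9.43 and 9.45 on the control arrays and 9.50, 9.45 and 9.43 on the treated arrays. The values of the groups coincide. The mean was 9.46 ± 0.04 in each (SD, n = 3 each), and the 95% confidence interval of the log2 change ran from -0.10 to 0.10, so a change larger than that in either direction is outside it. The insulin receptor gene INSR, which is no member, rose from 7.06, 7.09 and 7.13 to 9.33, 9.27 and 9.13. This is a log2 change of 2.15 (SE 0.06, limma adjusted p = 2.87e-07). Within each array, the difference between INSR and IGF1R rose by 2.15 on average, without overlap between the groups (exact two-sided permutation p = 0.1, the smallest possible). The ligand IGF1 had a mean of 5.02 in both groups, below the median of all genes' means (6.12). IGF2 and INS had no row with a single symbol and were not analysed here. The third receptor of the family, INSRR, and IGFALS, which binds IGF and IGFBP3 in serum, were not called.

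**Figure D2:**
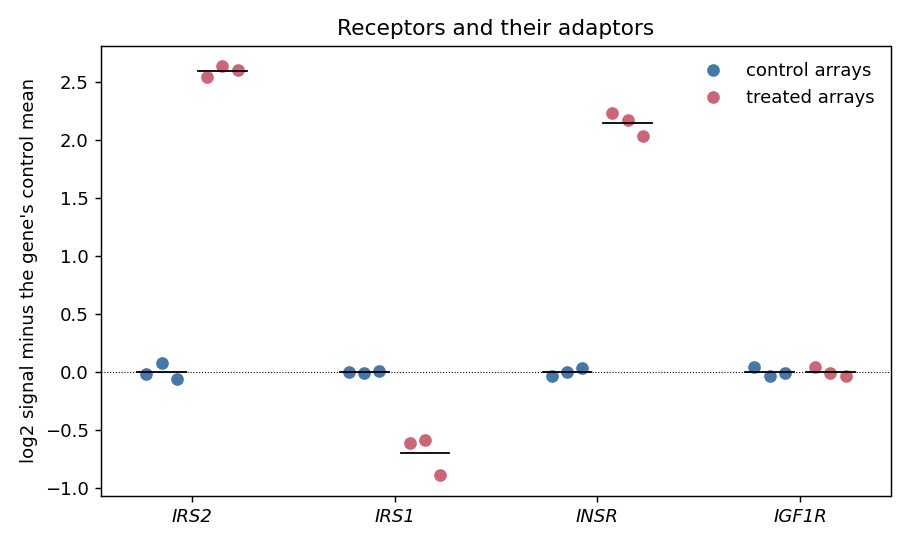
Log2 signal of IRS2, IRS1, INSR and IGF1R on each array after subtracting the gene's own control mean, with control arrays in blue, treated arrays in red and black lines at the group means. The treated means are at 2.60 for IRS2, -0.70 for IRS1, 2.15 for INSR and 0 for IGF1R.

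Of the 7 IGF-binding proteins, 4 fell, 0 rose and 3 were not called, whereas 21.6% of all genes were called lower and 24.0% higher. IGFBP6, which prefers IGF2 over IGF1, fell most. Its log2 signal was 10.46, 10.74 and 10.67 on the control arrays and 9.05, 8.59 and 8.69 on the treated arrays. The arrays of each group scatter more than for any other member, yet the highest treated value is well below the lowest control. The mean was 10.62 ± 0.15 in controls and 8.78 ± 0.24 in treated cells (SD, n = 3 each). The log2 change was -1.85 (SE 0.13, limma adjusted p = 2.17e-05). A lower change was found for 1.84% of genes.

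IGFBP7, a relative that binds IGFs weakly and is deposited in the matrix of vessels, fell with less scatter. Its log2 signal was 12.43, 12.50 and 12.40 on the control arrays and 11.01, 10.96 and 10.87 on the treated arrays. The groups did not overlap. The means were 12.44 ± 0.05 and 10.95 ± 0.07 (SD, n = 3 each), with a log2 change of -1.50 (SE 0.05, limma adjusted p = 8.05e-07). In RefSeq's gene table IGFBP5, IGFBP7, IGF1R and IGF2R overlap 2, 4, 4 and 3 other genes, of which only POLR2B, at IGFBP7, is protein-coding. Whether probes of these rows also read an overlapping gene was not tested.

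IGFBP5, which binds to matrix and bone mineral, lay close to the median of all genes (6.12) in controls and under it after treatment. Its log2 signal was 6.21, 6.39 and 6.31 on the control arrays and 5.36, 5.43 and 5.30 on the treated arrays. The groups did not overlap, but the treated values are low, and without detection calls the size of a fall there is uncertain. The log2 change was -0.94 (SE 0.06, limma adjusted p = 1.41e-05). IGFBP2, often abundant in glioblastoma, lay just above that median in controls and just below it after treatment. It gave 6.36, 6.35 and 6.34 on the control arrays and 5.99, 6.08 and 6.10 on the treated arrays, a small shift without overlap at a log2 change of -0.29 (SE 0.05, limma adjusted p = 0.00127). IGFBP2 and IGFBP5 are neighbours on chromosome 2, on opposite strands and with 0 annotated genes between them.

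The other neighbouring pair, IGFBP1 and IGFBP3 on chromosome 7, was bright and was not called. IGFBP3, the main IGF carrier of blood, gave 12.42, 12.29 and 12.29 on the control arrays and 12.43, 12.53 and 12.48 on the treated arrays. The lowest treated value exceeded the highest control by 0.01 only. The log2 change was 0.15, with a 95% confidence interval from 0.02 to 0.27 (limma adjusted p = 0.065). This gene passed the test in 4 other settings, for example without control replicate 1 (log2 change 0.19, adjusted p = 0.0293) and with arrays centred on their medians (log2 change 0.17, adjusted p = 0.0298). IGFBP1, a binding protein that liver cells make under low insulin, gave 9.93, 9.96 and 9.75 on the control arrays and 10.01, 9.95 and 10.01 on the treated arrays. These overlap, and control replicate 3 is the lowest. The 95% confidence interval of the log2 change ran from -0.04 to 0.26 (limma adjusted p = 0.218).

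IGFBP4, an inhibitor of IGF action that is the classical substrate of pappalysin 1, gave 7.35, 7.48 and 7.34 on the control arrays and 7.63, 7.53 and 7.41 on the treated arrays. The groups overlap, and the 95% confidence interval of the log2 change ran from -0.03 to 0.30 (limma adjusted p = 0.176). For the uncalled binding proteins, changes above these upper bounds are outside the interval, whereas small rises are within it.

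**Figure D3:**
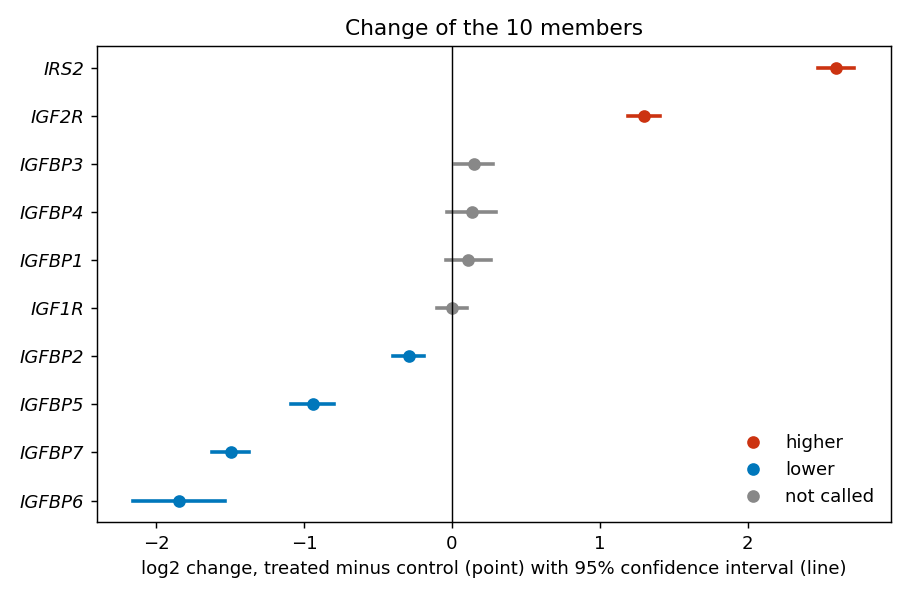
Log2 change (treated minus control) of the 10 genes, as points with 95% confidence intervals as lines, from IGFBP6 at -1.85 to IRS2 at 2.60. Red genes were higher, blue genes lower and grey genes not called, and the grey intervals of IGFBP1, IGFBP4 and IGF1R cross 0.

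The proteases that cut IGF-binding proteins changed in both directions. Among 15 proteases and protease inhibitors measured, 6 were called higher and 4 lower by limma, and their median log2 change was 0.14. The share called was 66.7%, against 45.6% of all genes. The pappalysin genes PAPPA and PAPPA2, whose products between them cleave IGFBP4 and IGFBP5, rose by 2.06 and 2.10 (limma adjusted p = 2.5e-06 and 2.55e-07). PAPPA was at 11.16, 11.11 and 10.83 in controls and at 13.05, 13.18 and 13.04 in treated samples. The stanniocalcins STC2 and STC1, which inhibit pappalysins, rose by 0.91 and 0.40 (limma adjusted p = 9.09e-05 and 3.09e-04). STC1 had means of 17.13 in controls and 17.53 in treated samples, above a 16-bit scanner reading, so its change may be stretched. The matrix protease MMP3 rose by 2.47, whereas ADAM9, ADAM12 and HTRA1, which have been described to cut IGFBP5 or IGFBP3, fell, with log2 changes of -2.23, -2.22 and -1.97. MMP2, a gelatinase, fell by 1.02, from a control mean of 16.22 that also lay above 16.

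Proteins that contain an IGFBP-type domain, or that meet IGF-binding proteins at the cell surface, also changed both ways. Among 12 other genes with the domain, 2 were called higher and 4 lower, and the median log2 change was -0.08. CCN1, a matrix signalling protein, rose by 1.12, and its relatives CCN4, CCN3 and CCN2 fell, with log2 changes of -1.05, -0.92 and -0.71. Among 10 surface partners 2 rose and 4 fell (60.0% called, against 45.6% of all genes), at a median of -0.11. With quantile normalization repeated 2 rose and 7 fell. ITGA5, the integrin subunit that binds IGFBP1 through its RGD motif, fell by 1.78, and TMEM219, a receptor described for IGFBP3, rose by 0.52. IGF2BP3, which binds IGF2 mRNA, fell by 1.71 and its relative IGF2BP2 rose by 0.39.

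Of the adaptors and feedback regulators of IGF1R and IRS proteins, 24 were measured, of which 14 rose and 4 fell, at a median log2 change of 0.26. The genes that fell include IRS1, described above. MDM2 had the largest rise of this list, at 2.74. The ubiquitin ligase gene CBL, the RAS activator SOS1 and the docking protein gene GAB2 rose by 1.00, 1.10 and 1.56, and the phosphatase gene PTPN11 fell by 0.82. Among 26 genes of the PI3K, AKT and mTORC1 pathway, 12 rose and 7 fell, at a median of 0.07. PIK3R3 and PIK3R1, regulatory subunits that bind IRS proteins, rose by 1.77 and 0.83, and AKT1 fell by 0.57. The share called was 75.0% in the first list and 73.1% in the second, against 45.6% of all genes, and the lists' sizes and levels were not matched to those of all genes.

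FOXO factors, which AKT holds out of the nucleus and which switch on IRS2, INSR and IGFBP1, were listed with other FOXO targets. The 21 genes measured had a median log2 change of 0.19, with 11 called higher and 3 lower (66.7% called, against 45.6% of all genes). TXNIP rose by 6.68, INSR by 2.15, FOXO3 by 1.54, BCL6 by 1.48 and SESN1 by 1.43. In contrast, CAT, PDK4 and CITED2 fell, with log2 changes of -1.74, -0.88 and -0.79. INSR was also counted with the insulin receptor family and RICTOR with the PI3K pathway, so the counts of the lists are not separate. The FOXO target IGFBP1 itself was not called, as described above. Of 10 genes listed as inducers of IRS2 or IGFBP1 in other systems, 7 rose and 2 fell (90.0% called). The levels of these 2 lists were not matched to those of all genes. The largest rises of this list were 3.40 for DDIT3 and 3.22 for ATF3. CRTC2, the cAMP coactivator, rose by 1.31, EPAS1 by 1.49 and TFE3 by 0.49, and HIF1A and SREBF1 fell, with log2 changes of -0.94 and -0.64.

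**Figure D4:**
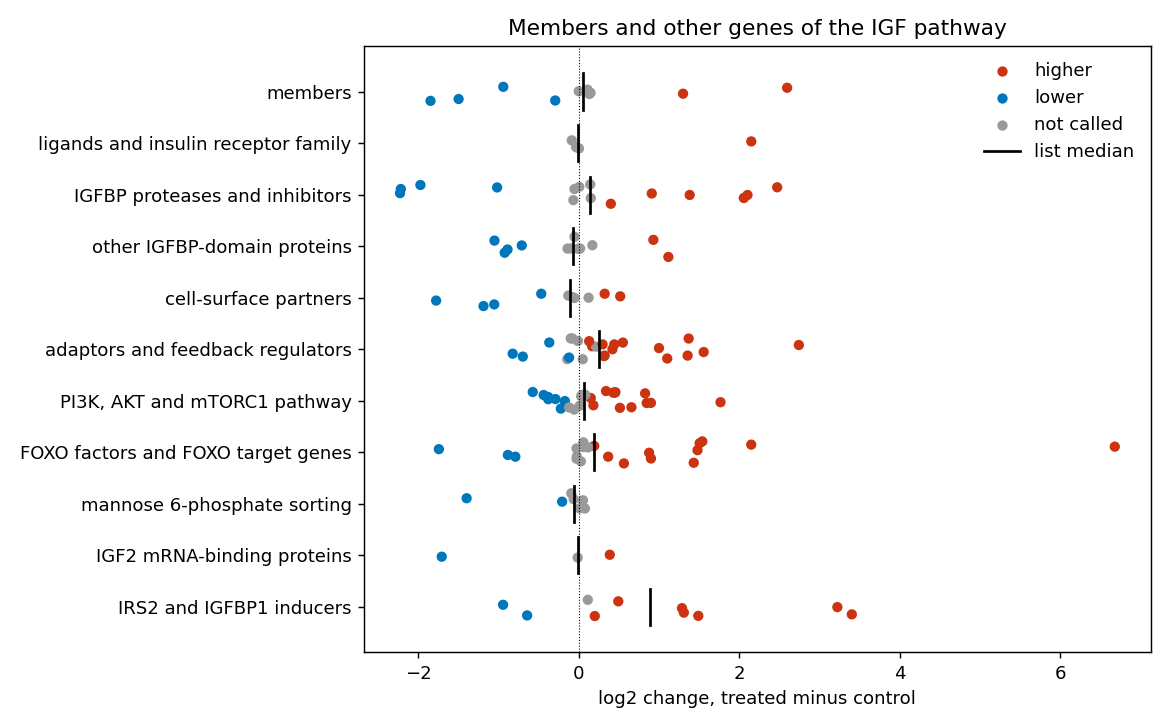
Log2 change (treated minus control) of the 10 members in the top line and of the other IGF pathway genes by list, with red for higher, blue for lower, grey for not called and black bars at list medians. The members spread from -1.85 to 2.60 around a median of 0.06, and the far point at 6.68 is TXNIP.

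The genes whose pattern over the 6 arrays was most like that of IRS2 were sought among bright protein-coding genes by the Euclidean distance between log2 values, each taken relative to the gene's control mean. The 3 nearest were DRAM1, a lysosomal membrane protein gene, NRP2, a semaphorin co-receptor gene, and LRIG1, an inhibitor of growth factor receptors, at distances of 0.08, 0.16 and 0.16 and with log2 changes of 2.58, 2.59 and 2.63. For IGFBP6 the 3 nearest were PDSS1, of coenzyme Q synthesis, TPI1, of glycolysis, and EFNB2, an ephrin ligand gene, at distances of 0.13, 0.21 and 0.27 and with log2 changes of -1.88, -1.85 and -1.73. The likeness rests almost wholly on the shift between 2 groups of arrays that all genes share.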

How the data were processed

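Total RNA of 6 samples was measured on Affymetrix whole-transcript arrays, 3 treated and 3 control, grouped by their titles. Each deposited value is the log2 signal of a transcript cluster. Per the submitters' processing notes, the authors used RMA and Transcriptome Analysis Console 4.0.1.36. RMA forces 1 distribution of probe signals on all arrays before they are summarized, which hides any shift in RNA content per cell. The deposited values do not share 1 distribution exactly, with array medians from 5.18 to 5.24. Values ran from 2.44 to 19.46, and 181 to 196 per array lay above 16, beyond a 16-bit scanner reading, so the sizes of log2 changes may be stretched. No detection calls were used. The arrays' genome build is not stated in the sources used here.

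Rows with 1 symbol (23781 of 67528) were named through the platform annotation, updated with RefSeq's GRCh38.p14 table, and the highest-mean row of each of 22411 genes was kept. The number of arrays limits the precision. Group means were tested with limma 3.58.1 under R 4.3.3 (lmFit, then eBayes, 4 residual and 2.75 prior degrees of freedom, no filter), and the code was tested on simulated data. Differences within arrays were tested by exact permutation in SciPy 1.17.1, and figures were drawn with matplotlib 3.10.9. Genes of 10 pathway lists were named from the up to 4 called genes per direction with the smallest adjusted p. STC1, STC2, FOXO3, TFE3 and uncalled list genes were named after their values were seen. The 10 genes and all lists were chosen with earlier results of these data known. No 2 arrays were identical. Same-numbered arrays did not deviate together, with correlations of -0.08, 0.04 and -0.05. These values show no pairing by number but cannot exclude it. The 16 alternatives are given in the closing section.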

Additional observations from a re-analysis of the deposited data

How the results depend on the processing

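Over 16 other settings IRS2, IGF2R, IGFBP6 and IGFBP7 kept their direction and their call, with log2 changes of 2.13 to 2.64, 1.07 to 1.33, -1.98 to -1.52 and -1.56 to -1.23, and IGF1R was called in none. Not all settings could move these results. Compressing the scale to a highest value of 16 left the adjusted p-values as they were. Averaging rows, removing dim genes and testing all rows left the log2 changes of these 1-row genes as they were. The number of the 10 genes called was 6 to 7 without each single array. IGFBP2 and IGFBP5 lost their call only under a minimum log2 change of 1, which left 4 genes called, and IGFBP5 was not tested once dim genes were removed. IGFBP3 passed in 4 settings, without control replicate 1, without dim genes (adjusted p = 0.0329), with arrays centred and with trend and robust estimation (adjusted p = 0.0403), at 0.15 to 0.19, and had 0.06 after repeated quantile normalization. With the replicate number as a block, 6 of the 10 genes were called, as without it, and of the pathway lists 15 adaptor genes, 17 PI3K genes and 13 FOXO genes. Leaving out single arrays gave 10 to 11 called protease genes, 15 to 17 adaptor genes, 17 to 19 PI3K genes and 13 to 14 FOXO genes. In the other lists it gave 1 ligand or receptor gene, 6 genes with the domain, 6 surface partners and 2 sorting genes each time. It also gave 2 IGF2 mRNA-binding genes and 9 listed regulators of IRS2 or IGFBP1 each time. By its own construction, a minimum log2 change of 1 left 2 genes with the domain, 3 surface partners, 6 adaptor genes and 1 PI3K gene. For the same reason it left 7 FOXO genes, 1 sorting gene, 1 IGF2 mRNA-binding gene and 5 listed regulators of IRS2 or IGFBP1. Repeated quantile normalization called 9 surface partners, 2 higher and 7 lower, against 6 in the main setting. Low signals limit IGFBP2 and IGFBP5, whose treated means lay below the median of all genes.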
